A study of Mus musculus with 30 samples.

Results

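The genes described here are the 100 with the deepest dip at day 2 in WT murine erythroleukemia (MEL) cells, a mouse erythroid leukemia line that hemoglobinizes in DMSO. RNA was sequenced before DMSO (day 0) and at days 2 and 5 of treatment with 1.5% DMSO, in WT cells and in Abcb10-null cells, with 5 libraries for each genotype and day and 30 in all. Abcb10 is an ATP-binding cassette transporter of the inner mitochondrial membrane. The Abcb10-null cells are a single CRISPR/Cas9 clone cut in exon 1 of *Abcb10*, so genotype and clone cannot be told apart. Both genotypes grew in the same DMEM-based medium, and DMSO was the one treatment. CPM is a gene's count divided by the library's total count, times 1000000. Genes with a WT mean of at least 10 CPM at both day 0 and day 5 were ranked by the log2 ratio of the lower of those means to the day 2 mean, with 1 added to each, and the first 100 of 7646 were taken out of 54532 genes in the table. These genes were thus chosen by their WT values. All WT values, and comparisons with WT, are given as descriptions without a test. The tests of change between days use only Abcb10-null libraries, which the choice did not use. A closing section lists outlying libraries by a fixed limit, WT libraries included, and reads nothing from their number.

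DMSO drives MEL cells out of the cell cycle and into the erythroid program, in which heme synthesis enzymes, membrane skeleton proteins and globins accumulate while RNAs of the growing progenitor are lost. A transcript that is lower in the middle than at both ends has to fall and then return. Erythroid cells also take down lysosomes, endoplasmic reticulum and mitochondria as they mature. Genes for these compartments stand among the 100, but their share among all genes was not counted and a link to the dips was not tested.

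Libraries held between 9906783 and 20157768 counts. Replicates of 1 condition differed by more than counting error. The erythroid markers *Alas2*, *Slc4a1*, *Epb42*, *Klf1* and *Gata1* summed to 605.6 to 693.4 CPM in WT at day 0, 1228 to 1370 at day 2 and 5344 to 8707 at day 5. In Abcb10-null the sums were 594.6 to 678.6, 635.9 to 770.9 and 2398 to 3481 CPM. There the mean of *Klf1* fell from 330.5 to 178.1 CPM by day 2, while those of *Alas2*, *Slc4a1*, *Epb42* and *Gata1* rose. *Alas2* went from 38.3 to 153.5 CPM and *Epb42* from 4.6 to 27.2 CPM. The labels name *Abcb10*, whose mean in WT was 113 ± 4.3 CPM at day 0, 624 ± 105 at day 2 and 1242 ± 44.9 at day 5 (SD, n = 5), against 72.4 ± 4.42, 202 ± 59.9 and 204 ± 30.9 CPM in Abcb10-null. Among the 7646 genes, 4.26% in WT day 5 replicate 2, 3.75% in WT day 5 replicate 5 and 5.44% in Abcb10-null day 2 replicate 2 lay over 2-fold from the mean of the other replicates. In each of the other 27 libraries 1.12% or less did. Values without those 3 libraries are given where they bear on a result. The labels name no batch, so the day of harvest and any batch cannot be told apart.

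The dips in WT were mostly shallow. The ranking value ran from 1.41, a 2.66-fold drop, in *H2-T24* to 0.24, a 1.18-fold drop, at the hundredth gene, with a median of 0.31, or 1.24-fold. It was above 0.5 in 16 genes and above 1 in *H2-T24* alone. Of the 7646 genes, 689 (9.01%) were lower at day 2 than at both other days by their means, so the 100 are the deeper part of that set. There was no gap at the boundary. *Serp1*, *Fbxo4* and *Fam241b* stood just inside with 0.240, 0.239 and 0.238, and *Ddx3x*, *Atp6v1h* and *Ccdc50* just outside with 0.237, 0.237 and 0.235. Day 5 was above day 0 in 47 of the 100 and below it in 53, so the return went past the starting level in nearly as many genes as it fell short. In 24 of the 100, all 5 WT day 2 libraries lay below all 10 libraries of days 0 and 5, and 27 of the 7646 genes (0.353%) had that form. With library sizes scaled by TMM (trimmed mean of M values) the median value moved from 0.31 to 0.50 for the 100 and from -0.44 to -0.26 for the 7646.

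Averaged over the 100 genes, log2(CPM + 1) in WT was 5.998 to 6.168 at day 0, 5.37 to 5.83 at day 2 and 6.03 to 6.24 at day 5. WT day 2 replicates 1 and 2 were the lowest of that day, both at 5.37, and replicates 3 to 5 were at 5.66 to 5.83. The same split was seen over the genes at large. Chi-square per degree of freedom was 69.2 to 79.1 between replicates 1 or 2 and replicates 3 to 5. Within these sets it was 6.345 to 18.9. The ranking was not run without both low libraries. In Abcb10-null the same average was 6.06 to 6.24 at day 0, 5.91 to 6.04 at day 2 and 6.003 to 6.404 at day 5. The day 2 libraries of Abcb10-null all lay below its day 0 libraries and overlapped its day 5 libraries at the lower end. Group means fell from 6.14 ± 0.075 to 5.97 ± 0.060 and stood at 6.18 ± 0.170 at day 5 (SD, n = 5).

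**Figure D1:**
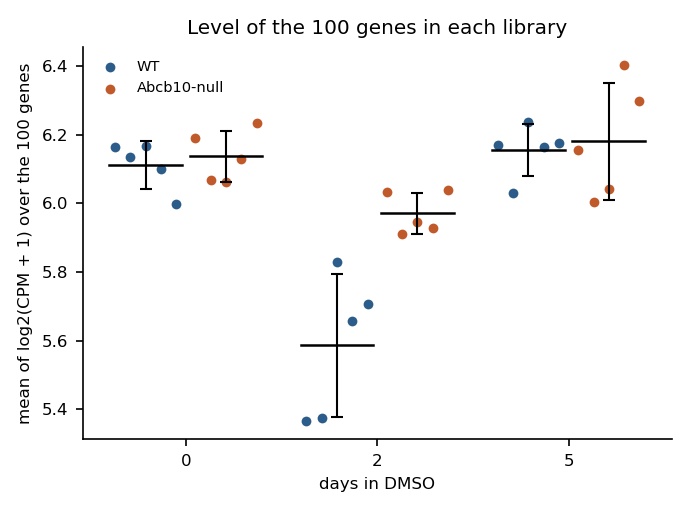
Mean of log2(CPM + 1) over the 100 genes (vertical axis) in each of 30 libraries by days in DMSO, with the group mean and SD in black (n = 5). WT day 2 lies between 5.37 and 5.83, below every other library, since WT values chose the genes. Abcb10-null day 2 lies between 5.91 and 6.04.

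In Abcb10-null cells 38 of the 100 genes had their lowest mean at day 2, against 15.3% of the 7646 genes. Another 32 fell from day 0 to day 2 to day 5, 22 rose at both steps and 8 peaked at day 2. Every Abcb10-null day 2 library lay below every day 0 and day 5 library in 5 genes, *Ubxn4*, *Dnajc3*, *Cdc42se1*, *Slc2a3* and *Mvp*, against 0.667% of the 7646. Each step was tested with edgeR's quasi-likelihood test over all genes that passed its expression filter, with Benjamini-Hochberg adjusted p under 0.05 called, and all 100 genes passed the filter. From day 0 to day 2, 44 of the 100 fell and 15 rose, where 20.1% and 23.1% of 12940 genes did. From day 2 to day 5, 24 rose and 5 fell, where 14.4% and 16.6% of 12797 genes did. Both steps use the day 2 libraries. The median log2 difference of the 100 was -0.25 for the first step and 0.19 for the second, beside 0.03 and 0.0083 over all genes tested.

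The dip was then tested as 1 contrast, the mean of days 0 and 5 minus day 2 on the log2 scale, in the 15 Abcb10-null libraries. It was positive in 35 of the 100 and negative in 5, where it was positive in 6.69% and negative in 11.8% of 13507 genes (8.37% and 14.6% of the 7646). The median was 0.20 for the 100 and -0.05 for all genes tested. A positive value is also reached by a gene that drops early and stays down. Of the 35, 26 had their lowest mean at day 2, close to the share among all eligible genes with a positive call (461 of 640, 72%), while the means of 8 were ordered downward and those of 1, *Dusp3*, upward. Between day 0 and day 5, 36 of the 100 rose and 43 fell, beside 33.9% and 33.3% of 12915 genes. With each Abcb10-null library left out in turn, 28 of the 40 calls for the dip, 48 of the 59 for the step to day 2 and 18 of the 29 for the step to day 5 were kept. The number of positive dip calls was then 29 to 36. Without Abcb10-null day 2 replicate 2 the negative calls rose from 5 to 13, and without Abcb10-null day 5 replicate 5 the genes that rose from day 2 to day 5 went from 24 to 15. With all genes of at least 1 count in the fit, 23 were positive and 13 negative, and the calls of *B2m*, *Cd24a*, *Cdc42*, *Rap2c* and *Capza1* were among those lost (adjusted p = 0.085 to 0.49). The counts given for groups and lists of genes stand beside the shares over all genes tested, where 20.1% fell and 23.1% rose by day 2, 14.4% rose and 16.6% fell by day 5, and 6.69% were positive and 11.8% negative for the dip.

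**Figure D2:**
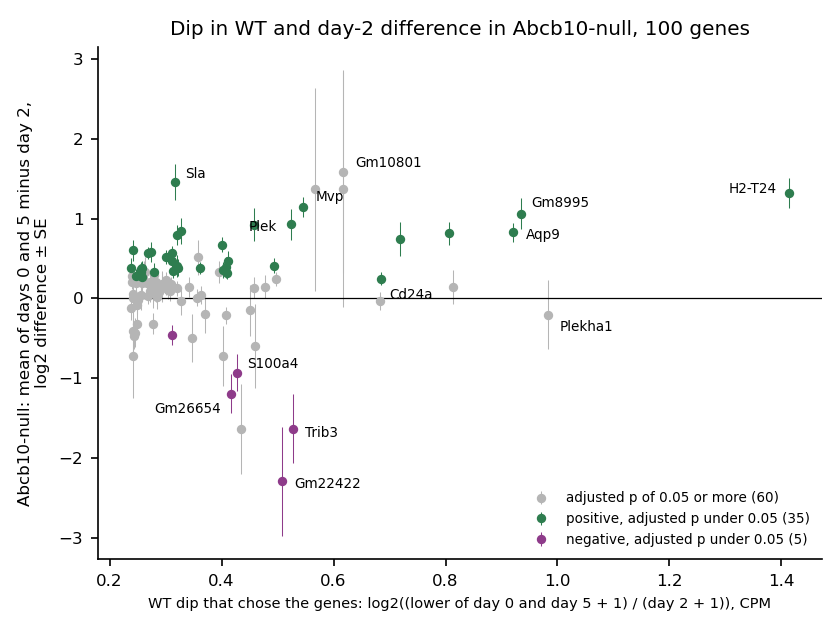
For each of the 100 genes, the WT ranking value that chose it (horizontal axis, log2) against the Abcb10-null contrast of the mean of days 0 and 5 minus day 2 (vertical axis, log2 difference, bars are SE). Green points (35) are positive and purple points (5) negative at adjusted p under 0.05 in edgeR, and grey points (60) did not pass. *H2-T24* and *Sla* are among the highest, and *Gm22422* is the lowest.

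**Figure D3:**
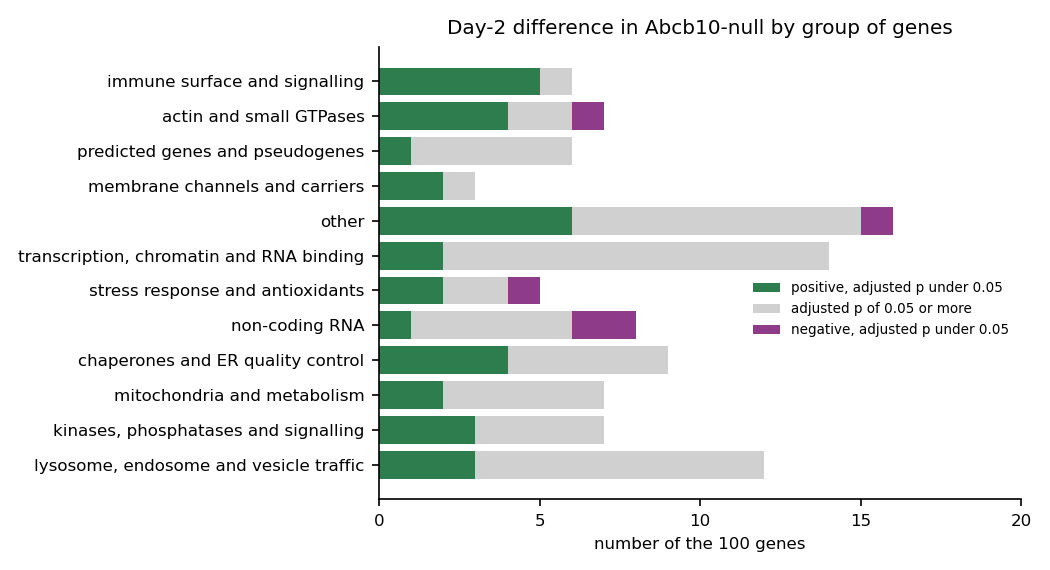
Number of the 100 genes in each of 12 groups of related function (horizontal axis), split by the outcome of the dip contrast in Abcb10-null. The share with a positive call (green) is highest in the immune surface and signalling group, 5 of 6, and the negative calls (purple) lie in 4 groups, with 2 of 5 among non-coding RNAs. The groups were drawn up after the values were seen.

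The deepest dip belonged to a gene of the immune surface and signalling group. That group held 6 genes, of which 4 fell from day 0 to day 2 in Abcb10-null and 5 were positive for the dip contrast. *H2-T24* (chr17:36005695-36020560, minus strand, GRCm38) encodes a nonclassical MHC class I heavy chain. In WT, *H2-T24* was at 27.9, 29.02, 35.3, 32.8 and 30.5 CPM at day 0, 15.96, 12.4, 8.03, 10.6 and 8.34 CPM at day 2 and 33.8, 32.99, 31.2, 32.8 and 25.7 CPM at day 5. Every day 2 library lay below every other WT library. In Abcb10-null, *H2-T24* was at 154, 184, 169, 156 and 171 CPM at day 0, 21.2, 23.3, 31.4, 23.2 and 24.9 CPM at day 2 and 19.5, 33.5, 30.04, 17.8 and 11.4 CPM at day 5. It started at a higher level in Abcb10-null, at 2.39 above WT on the log2(CPM + 1) scale at day 0. Day 2 was -2.76 ± 0.12 (SE) from day 0 on the log2 scale (adjusted p = 1.0e-08), and day 5 was -0.09 from day 2 (adjusted p = 0.8). The dip contrast was 1.32 ± 0.18 (SE), adjusted p = 0.00012, with day 5 left near day 2. *B2m*, the light chain that pairs with MHC class I heavy chains, had means of 139 ± 10.1, 77.7 ± 15.1 and 92.98 ± 16.4 CPM at days 0, 2 and 5 in WT and 270.0 ± 21.7, 166 ± 10.3 and 168 ± 18.2 CPM in Abcb10-null (SD, n = 5), with a dip contrast of 0.37 ± 0.09 (SE), adjusted p = 0.0076. Both genes fell by day 2 in Abcb10-null, and neither rose from day 2 to day 5 past the test there. On a list of interferon and antigen presentation genes, of which *B2m* is the member here, 22 of 37 tested were positive for the dip contrast in Abcb10-null and 1 negative, while 32 fell from day 0 to day 2 and none rose from day 2 to day 5, where 8 fell.

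*Cd24a* (chr10:43578284-43584265, plus strand), a small glycosylated surface protein of blood progenitors, lay at similar levels in both genotypes at day 0. In WT, *Cd24a* was at 749.6, 801, 786, 803 and 706 CPM at day 0, 431, 448, 575, 454 and 482 CPM at day 2 and 1024, 810.1, 885, 991 and 704 CPM at day 5. The day 2 libraries stood clear of both other days. In Abcb10-null, *Cd24a* was at 752, 761, 847, 781 and 739.6 CPM at day 0, 458, 619, 463, 497 and 471 CPM at day 2 and 478, 441, 382, 506 and 411 CPM at day 5. Day 2 and day 5 overlapped there. The early fall passed the test (-0.64 ± 0.10 (SE) on the log2 scale, adjusted p = 0.00016), and the dip contrast of 0.25 ± 0.08 (SE), adjusted p = 0.048 was lost in 13 of the 15 fits that each left out 1 library. *Sla*, an adaptor that dampens antigen receptor signals, fell from a mean of 149 to 43.9 CPM in WT and reached 54.9 CPM at day 5. In Abcb10-null its means were 294 ± 7.598, 55.5 ± 24.3 and 75.6 ± 31.9 CPM, with a dip contrast of 1.46 ± 0.23 (SE), adjusted p = 0.00029. Its step from day 2 to day 5 there did not pass (0.52 on the log2 scale, adjusted p = 0.19 in edgeR). *Plek*, pleckstrin, a protein kinase C substrate of platelets and leukocytes, ended far above its start, with means of 523 ± 35.00, 364 ± 85.9 and 1919 ± 185 CPM in WT and 814 ± 43.2, 678 ± 254 and 2074 ± 467 CPM in Abcb10-null. Its dip contrast was 0.93 ± 0.20 (SE), adjusted p = 0.0035, but its step from day 0 to day 2 was -0.25 with adjusted p = 0.42. *Dapp1*, an adaptor of phosphoinositide 3-kinase signalling, had means of 123, 50.7 and 89.8 CPM in WT. In Abcb10-null they were 185, 138 and 127 CPM, and the dip contrast of 0.14 did not pass (adjusted p = 0.68).

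Genes of other blood lineages moved with the day as well. The lists for these lineages hold none of the genes described here. On the lists for myeloid, mast cell and basophil, megakaryocyte and lymphoid genes, 11 of 14, 7 of 9, 6 of 11 and 2 of 4 genes tested fell from day 0 to day 2 in Abcb10-null. In the same order, 9 of 14, 4 of 9, 3 of 11 and none of 4 were positive for the dip contrast. From day 2 to day 5, 1 of 12, none of 6, 2 of 9 and none of 1 rose, while 1, 2, 1 and none fell. Most genes of these lists thus did not return past the test. The 4 megakaryocyte markers summed to between 308.5 and 400.1 CPM at day 0, 209 and 249 at day 2 and 266 and 436 at day 5 in WT, and to between 363 and 403, 152 and 259, and 267 and 582 CPM in Abcb10-null. *Pf4* and *Itga2b* made up most of these sums. *Pf4* had a lower mean at day 2 than at day 0 in both genotypes, and *Itga2b* in Abcb10-null only. In WT, *Pf4* did not return, with means of 222.1, 72.93 and 61.86 CPM at days 0, 2 and 5. *Itga2b* rose at both steps there, with 129, 147.9 and 318.3 CPM. *Gp9* and *Vwf* also had higher WT means at day 2 than at day 0. No marker of the sum thus had its lowest WT mean at day 2, while *Pf4* and *Itga2b* did in Abcb10-null. The summed myeloid (6), mast cell (5) and lymphoid (4) markers reached at most 8.18, 6.61 and 3.43 CPM in any library. Their part in the dips of the genes above was not tested. In bulk RNA, fewer cells of a type and less RNA per cell cannot be told apart.

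**Figure D4:**
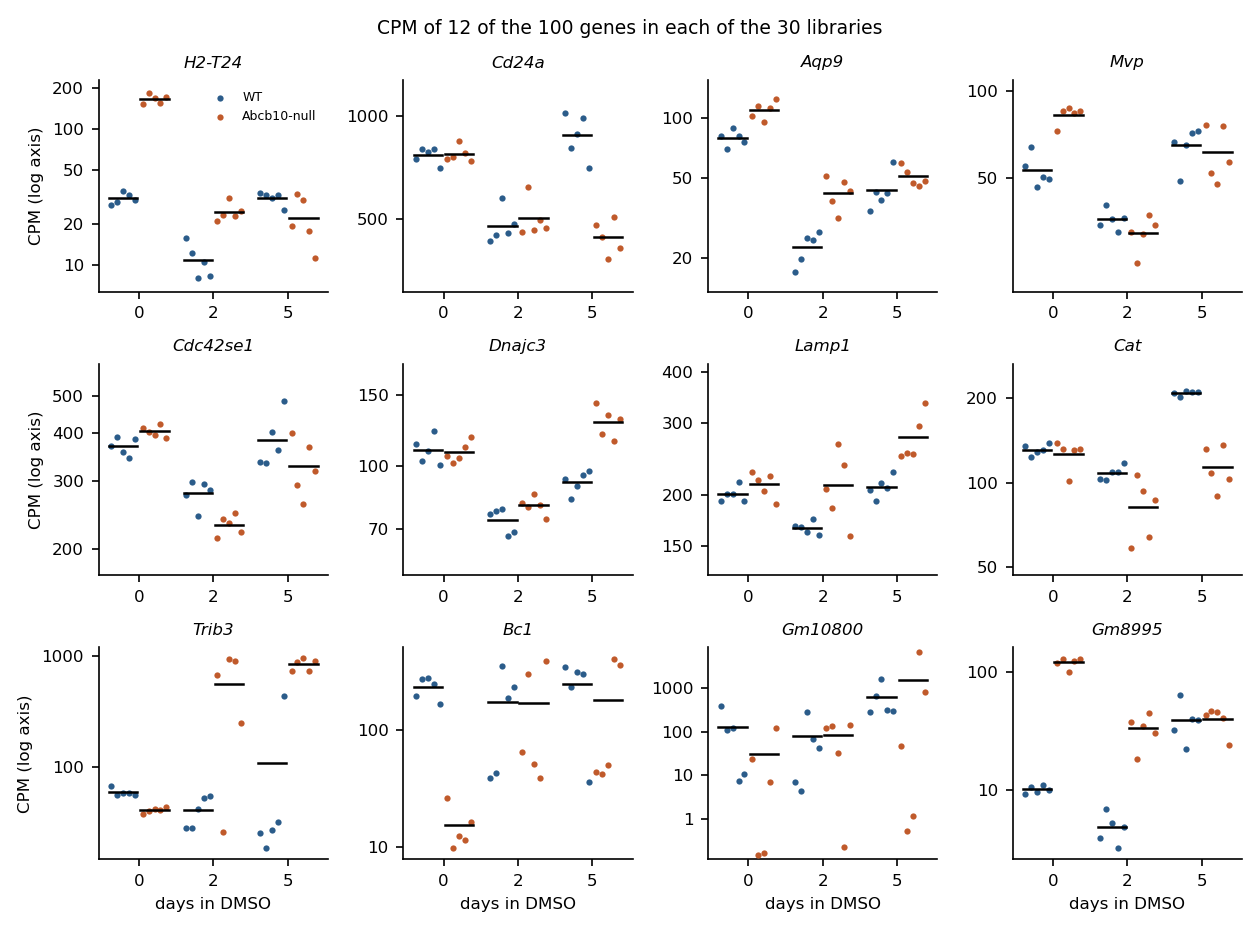
CPM (log axis) of 12 of the 100 genes in each library by days in DMSO, WT in blue and Abcb10-null in orange, with the group mean as a line (n = 5). *Mvp*, *Cdc42se1* and *Dnajc3* were lowest at day 2 in both genotypes, *H2-T24* and *Cd24a* came back by day 5 in the WT libraries, and *Trib3* was higher in Abcb10-null in 4 of the 5 day 2 libraries than in any WT day 2 library.

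Channels and carriers of the plasma membrane were 3 of the 100, and all 3 fell from day 0 to day 2 in Abcb10-null. *Aqp9* (chr9:71110659-71168682, minus strand), a channel for water and glycerol, had the fourth largest ranking value. In WT, *Aqp9* was at 81.5, 70.1, 88.9, 80.8 and 76.01 CPM at day 0, 16.9, 19.6, 24.9, 24.6 and 26.7 CPM at day 2 and 34.2, 42.6, 38.7, 42.1 and 60.4 CPM at day 5. In Abcb10-null, *Aqp9* was at 102, 114, 95.5, 112 and 124 CPM at day 0, 51.03, 38.5, 31.4, 47.7 and 42.9 CPM at day 2 and 59.2, 53.7, 47.3, 45.6 and 48.5 CPM at day 5. Day 2 was below day 0 in every library of both genotypes, and the day 5 means lay between those of day 2 and day 0. The dip contrast in Abcb10-null was 0.83 ± 0.12 (SE), adjusted p = 0.00017, but the step from day 2 to day 5 did not pass (0.32 on the log2 scale, adjusted p = 0.13 in edgeR). *Slc2a3*, the glucose transporter GLUT3, had means of 259.6 ± 27.2, 207 ± 88.6 and 304 ± 42.3 CPM in WT, where day 2 ranged widely, and 274 ± 23.05, 178 ± 47.2 and 364 ± 94.3 CPM in Abcb10-null, where no day 2 library reached a day 0 or day 5 library. It fell by day 2 (-0.63 ± 0.17 (SE), adjusted p = 0.008) and rose by day 5 (1.09 ± 0.21, adjusted p = 0.0017), both on the log2 scale. On the glycolysis and hypoxia list that holds it, 13 of 29 genes tested were positive for the dip contrast in Abcb10-null and none negative. *Orai3*, a calcium channel subunit, had means of 27.2, 22.8 and 31.5 CPM in WT and 41.1, 30.2 and 27.8 CPM in Abcb10-null.

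*Mvp* (chr7:126986860-127014621, minus strand), the major protein of the vault particle, was the one gene among the 16 of no assigned group whose day 2 libraries lay below all others in Abcb10-null. In WT, *Mvp* was at 54.9, 64.2, 46.5, 50.3 and 49.8 CPM at day 0, 34.5, 40.6, 36.2, 32.7 and 36.5 CPM at day 2 and 66.6, 48.98, 64.96, 71.3 and 72.5 CPM at day 5. In Abcb10-null, *Mvp* was at 72.4, 84.8, 86.97, 83.6 and 84.7 CPM at day 0, 32.7, 25.5, 32.3, 37.4 and 34.4 CPM at day 2 and 76.2, 51.9, 47.8, 75.4 and 56.9 CPM at day 5. In both, day 2 lay below every library of the other days. In Abcb10-null it fell by day 2 (-1.35 ± 0.13 (SE) on the log2 scale, adjusted p = 4.1e-06) and rose by day 5 (0.97 ± 0.17, adjusted p = 0.00086), with a dip contrast of 1.14 ± 0.13 (SE), adjusted p = 1.7e-05. *Smim3*, a small membrane protein, had means of 30.5 ± 1.68, 13.9 ± 1.29 and 25.1 ± 4.79 CPM in WT and 32.9 ± 0.881, 16.96 ± 3.19 and 26.9 ± 6.42 CPM in Abcb10-null. It too fell and rose past the test, by -0.95 and 0.71 on the log2 scale (adjusted p = 0.0002 and 0.015 in edgeR). *Tmem40* fell by day 2 in Abcb10-null (-1.78 on the log2 scale, adjusted p = 2.2e-05 in edgeR), with means of 37.4, 11.1 and 8.904 CPM there and 15.98, 8.97 and 15.4 CPM in WT. Its dip contrast of 0.75 ± 0.21 (SE), adjusted p = 0.019 was lost without Abcb10-null day 2 replicate 1 (adjusted p = 0.055) or replicate 3 (0.062).

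Actin regulators and small GTPases were 7 of the 100, and 6 of them fell from day 0 to day 2 in Abcb10-null. *Cdc42se1* (chr3:95228732-95236409, plus strand), a small effector that binds the GTPase Cdc42, had the smallest adjusted p for the dip contrast of them. In WT, *Cdc42se1* was at 369.8, 391, 358, 344 and 387 CPM at day 0, 277, 298, 244, 296 and 285 CPM at day 2 and 337, 334, 404, 362 and 485 CPM at day 5. In Abcb10-null, *Cdc42se1* was at 413, 403, 396, 422 and 389.6 CPM at day 0, 214, 239, 233, 248 and 221 CPM at day 2 and 400.1, 293, 262, 369 and 318 CPM at day 5. Day 2 lay below all other libraries in each genotype. It fell by day 2 (-0.82 ± 0.09 (SE), adjusted p = 1.1e-05) and rose by day 5 (0.57 ± 0.13, adjusted p = 0.005) on the log2 scale in Abcb10-null, with a dip contrast of 0.67 ± 0.10 (SE), adjusted p = 0.00013. *Cdc42* itself, a master regulator of actin and polarity, had means of 312 ± 13.5, 243 ± 37.6 and 331 ± 44.9 CPM in WT and 343 ± 17.8, 243 ± 28.2 and 283 ± 14.3 CPM in Abcb10-null, and a dip contrast of 0.38 ± 0.08 (SE), adjusted p = 0.0024. *Rap2c*, a Ras-like GTPase, and *Capza1*, which caps actin filaments, were also positive, at 0.35 and 0.27 (adjusted p = 0.02 and 0.012 in edgeR). The call for *Rap2c* was lost without Abcb10-null day 2 replicate 4 and in the fit of all 30 libraries (adjusted p = 0.055 in both). From day 2 to day 5 *Rap2c* and *Capza1* did not rise past the test (0.19 and 0.0034 on the log2 scale, adjusted p = 0.29 and 0.98 in edgeR).

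From day 2 to day 5 in Abcb10-null, 2 of these 7 genes, *Cdc42se1* and *Cdc42*, rose past the test and 1, *S100a4*, fell. The rise of *Cdc42* was lost in several of the fits that left out 1 library (adjusted p = 0.056 to 0.13 in edgeR). *S100a4* encodes a calcium-binding protein of motile cells. Its means were 18.2 ± 1.43, 9.14 ± 1.597 and 12.6 ± 2.45 CPM in WT, a partial return, and 20.9 ± 4.11, 8.85 ± 3.47 and 0.974 ± 0.4202 CPM in Abcb10-null, where it kept falling. There the step from day 2 to day 5 was -3.10 ± 0.36 (SE) on the log2 scale (adjusted p = 7.0e-05), and the dip contrast was negative at -0.93 ± 0.23 (SE), adjusted p = 0.0084. No read was counted on *Gm42674*, which shares 51.7% of the exon bases of *S100a4* on the same strand. Whether reads over the shared bases were counted on *S100a4* or left out cannot be told from this. On the list of actin cytoskeleton and adhesion genes that holds *S100a4*, 18 of 31 genes fell from day 0 to day 2 in Abcb10-null and 1 rose, and from day 2 to day 5, 3 of 29 rose and 7 fell.

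Chaperones and quality control factors, most of them of the endoplasmic reticulum (ER), made up 9 of the 100. In Abcb10-null, 4 of the 9 fell from day 0 to day 2, 5 rose from day 2 to day 5, none moved the other way past the test, and 6 had their lowest mean at day 2. Of the 5 rises, those of *Derl1* and *Serp1* were lost in several of the fits that left out 1 library (adjusted p = 0.053 to 0.073 in edgeR). *Dnajc3* (chr14:118937976-118981697, plus strand) is an ER co-chaperone that also restrains the eIF2 kinases PERK and PKR. In WT, *Dnajc3* was at 113, 103, 109, 122 and 101 CPM at day 0, 76.4, 77.4, 78.3, 67.3 and 68.8 CPM at day 2 and 93.01, 83.2, 89.3, 95.1 and 97.4 CPM at day 5. In Abcb10-null, *Dnajc3* was at 106, 101, 105, 111 and 118 CPM at day 0, 81.3, 79.3, 85.6, 80.1 and 74.2 CPM at day 2 and 143, 119.7, 133, 115 and 130.4 CPM at day 5. No day 2 library overlapped another day in either genotype, and day 5 went above day 0 in Abcb10-null but not in WT by the means. The steps in Abcb10-null were -0.44 ± 0.09 (adjusted p = 0.0018) and 0.73 ± 0.11 (adjusted p = 0.00025), log2 differences with SE from edgeR, and the dip contrast was 0.57 ± 0.08 (SE), adjusted p = 0.00017. *Ubxn4*, which docks the ubiquitin-selective ATPase p97 on the ER, had means of 429 ± 14.5, 304 ± 18.1 and 534 ± 64.1 CPM in WT and 472 ± 28.9, 349.9 ± 38.2 and 453 ± 15.9 CPM in Abcb10-null, with a dip contrast of 0.41 ± 0.09 (SE), adjusted p = 0.0051.

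*Derl1*, a channel component for export of misfolded proteins, had means of 404, 294 and 390.3 CPM in WT and 452, 381 and 546 CPM in Abcb10-null. *Dnajc10*, an ER disulfide reductase, had means of 266, 174 and 232 CPM in WT and 359, 200.2 and 172 CPM in Abcb10-null, where the step from day 2 to day 5 did not pass (-0.17 on the log2 scale, adjusted p = 0.24 in edgeR). *Ero1lb*, an ER oxidase that supplies disulfides, was at 19.4, 15.6 and 21.1 CPM in WT and rose from day 2 to day 5 in Abcb10-null (22.1, 23.6 and 34.2 CPM, log2 difference 0.59 ± 0.12 (SE), adjusted p = 0.0027). *Chordc1* and *Dnaja1*, co-chaperones of Hsp90 and Hsp70 in the cytosol, were at 459, 294 and 409.5 CPM and 189, 108 and 142 CPM in WT. *Dnaja1* fell by day 2 in Abcb10-null (-0.82, adjusted p = 0.00027 in edgeR), and *Chordc1* did not pass (-0.25, adjusted p = 0.26). Over the ER chaperone list that holds *Dnajc3*, 14 of 18 genes tested were positive for the dip contrast in Abcb10-null and none negative, with a median of 0.57 on the log2 scale beside -0.05 over all genes. Over the heat shock list, 2 of 11 were positive and none negative.

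Lysosome, endosome and vesicle genes were 12 of the 100. In 6 of them, *Lamp1*, *Mfsd1*, *Arl8b*, *Ap4s1*, *Borcs7* and *Flcn*, all WT day 2 libraries lay below all other WT libraries. That form was found in 24 of the 100 and in 0.353% of the 7646 genes. WT values chose the genes, so nothing is read from this count. In Abcb10-null 3 of the 12 fell by day 2, 3 rose by day 5 and 3, *Use1*, *Hexa* and *Atp6v1c1*, were positive for the dip contrast, the first of these shares near the 20.1% of all genes that fell. The dip call of *Use1* was lost without Abcb10-null day 2 replicate 3 (adjusted p = 0.052), and that of *Atp6v1c1* without day 2 replicate 1 (0.062) or 4 (0.056). *Lamp1*, the main glycoprotein of the lysosome membrane, had all its day 2 libraries low in WT alone. In WT, *Lamp1* was at 194, 201, 201, 215 and 194 CPM at day 0, 168, 167, 162, 175 and 159 CPM at day 2 and 205, 194, 213, 208 and 228 CPM at day 5. In Abcb10-null, *Lamp1* was at 227, 218, 205, 223 and 189.7 CPM at day 0, 207, 186, 267, 236 and 159 CPM at day 2 and 249, 254, 252, 295 and 336 CPM at day 5. The WT day 2 libraries were the lowest 5 of WT by a narrow margin, while in Abcb10-null day 2 spanned the day 0 range, with a step of -0.01 on the log2 scale. At day 2 WT averaged 166 ± 5.89 CPM, and Abcb10-null 211 ± 42.2 CPM (SD, n = 5). The difference between genotypes was not tested, since WT chose the gene.

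Among the others, *Mfsd1*, a lysosomal membrane transporter, had means of 143, 102 and 124 CPM in WT and 173, 145 and 124 CPM in Abcb10-null. *Arl8b*, the GTPase that moves lysosomes along microtubules, was at 132, 97.2 and 125 CPM in WT and 149, 143 and 145 CPM in Abcb10-null, and *Borcs7*, a subunit of the complex that recruits it, at 18.1, 13.4 and 17.4 CPM and 16.8, 15.2 and 13.3 CPM. *Hexa*, a lysosomal hexosaminidase subunit, had means of 80.2, 60.2 and 75.02 CPM in WT and rose from day 2 to day 5 in Abcb10-null (97.1, 91.6 and 137 CPM, 0.64 ± 0.12 (SE), adjusted p = 0.0017). *Flcn*, folliculin, which acts on the lysosome in nutrient sensing, rose from day 2 to day 5 in Abcb10-null (70.3, 106 and 197 CPM, 0.93 ± 0.25 (SE), adjusted p = 0.012), while its WT means were 67.5, 54.9 and 105 CPM. *Atp6v1c1*, a subunit of the proton pump, fell by day 2 in Abcb10-null (139.8, 108 and 119 CPM, -0.39 ± 0.08 (SE) on the log2 scale, adjusted p = 0.0024).

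The start sites of these lysosomal genes were inspected for short motifs, since E-box elements are common in lysosomal promoters. RefSeq promoter windows (250 bases before to 50 after each start, GRCm38.p6) were matched by symbol for 70 of the 100 genes and gave 88 windows. CACGTG, a palindrome and so the same on both strands, was in 13 of the 88 (14.8%), beside 7.15% of all 32851 windows, and in windows of 10 genes, *Bcl7b*, *Ccar1*, *Ivns1abp*, *Lamp1*, *Mapkapk3*, *Mfsd1*, *Mlx*, *Rab20*, *Sphk1* and *Vps26a*. Of the 12 lysosome, endosome and vesicle genes, 10 had a window and 4 of these held it. At least 4 copies in 1 window were found in 8 of the 32851 windows (0.0244%), and 2 of the 100 genes, *Lamp1* with 4 and *Mfsd1* with 5, were among the genes with such a window. This cutoff was not set in advance and equals the count in *Lamp1*, so nothing is read from the share. The stretches of *Lamp1* and *Mfsd1* are printed 5′ to 3′ on the gene's strand with each CACGTG in capitals. The single copies of *Rab20* and *Mlx*, and 2 copies of *Vps26a*, stand beside them.
Lamp1, chr8:13159075-13159176, plus strand: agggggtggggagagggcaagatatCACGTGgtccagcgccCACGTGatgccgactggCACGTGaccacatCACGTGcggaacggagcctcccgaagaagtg
Mfsd1, chr3:67582657-67582780, plus strand: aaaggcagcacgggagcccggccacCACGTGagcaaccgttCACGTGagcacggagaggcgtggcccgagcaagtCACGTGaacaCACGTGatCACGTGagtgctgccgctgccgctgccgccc
Vps26a, chr10:62486719-62486798, minus strand: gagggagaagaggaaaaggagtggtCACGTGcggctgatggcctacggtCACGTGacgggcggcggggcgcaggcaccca
Rab20, chr8:11478656-11478711, minus strand: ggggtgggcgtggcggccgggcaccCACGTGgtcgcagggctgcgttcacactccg
Mlx, chr11:101087225-101087280, plus strand: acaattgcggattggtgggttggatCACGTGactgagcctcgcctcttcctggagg
In *Lamp1* the copies lie between -61 and -10 from the RefSeq start and in *Mfsd1* between -86 and -13. *Mlx* encodes a helix-loop-helix partner of the glucose-responsive factors MondoA and ChREBP, whose binding sites are built from such E-boxes. Other motifs searched on both strands, overlaps allowed, were GGGCGG (52.3% of the 88 windows and 35.7% of all), AGATAA or TGATAA (12.5% and 18.6%), TATAAA (11.4% and 13.6%), TGACTCA (7.95% and 5.20%), TGATGNAA (7.95% and 3.97%), CCGGAAGT (3.41% and 3.89%), TGACGTCA (3.41% and 1.79%) and the serum response element (0% and 0.0639%). These are matches of letters, with no test, and windows of 1 gene can overlap.

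Both peroxide-removing enzymes among the 100 ended above their start in WT. *Cat* (chr2:103453849-103485160, minus strand) encodes catalase. In WT, *Cat* was at 135, 123, 128, 131 and 138 CPM at day 0, 103, 102, 109, 109 and 117 CPM at day 2 and 208, 202, 212, 209.6 and 211 CPM at day 5. In Abcb10-null, *Cat* was at 138, 131, 102, 131 and 132 CPM at day 0, 58.3, 107, 92.95, 63.9 and 86.9 CPM at day 2 and 132, 108, 89.4, 136 and 103 CPM at day 5. WT libraries of a day lay within a narrow band, and day 5 ended well above day 0, whereas Abcb10-null day 5 ran from 89.4 to 136 CPM, partly within the day 0 range. In Abcb10-null it fell by day 2 (-0.65 ± 0.14 (SE) on the log2 scale, adjusted p = 0.0021), rose by day 5 (0.55 ± 0.16, adjusted p = 0.017) and had a dip contrast of 0.58 ± 0.12 (SE), adjusted p = 0.0032. The rise by day 5 was lost without Abcb10-null day 5 replicate 1 (adjusted p = 0.053) or replicate 4 (0.051). *Gpx1*, glutathione peroxidase, had means of 811 ± 71.2, 649 ± 44.01 and 1611 ± 189 CPM in WT and 877 ± 41.1, 860.4 ± 212 and 1494 ± 57.2 CPM in Abcb10-null. There its rise from day 2 to day 5 passed (0.84 ± 0.19 (SE), adjusted p = 0.0042) while the step to day 2 was -0.02. On the oxidative stress and glutathione list, 6 of 24 genes were positive for the dip contrast in Abcb10-null and 1 negative. By day 2, 10 of the 24 fell and 4 rose, and from day 2 to day 5, 6 rose and 7 fell.

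*Trib3* (chr2:152337422-152344032, minus strand), a pseudokinase induced by ATF4 and CHOP in the integrated stress response, entered the list through 1 library. In WT, *Trib3* was at 67.9, 55.98, 58.1, 58.6 and 56.3 CPM at day 0, 28.2, 27.9, 41.4, 52.5 and 54.5 CPM at day 2 and 25.5, 18.4, 27.1, 31.8 and 439 CPM at day 5. WT day 5 replicate 5 was at 439 CPM and the other 4 of its group at 31.8 CPM or less. In Abcb10-null, *Trib3* was at 37.2, 40.03, 41.4, 40.8 and 43.5 CPM at day 0, 680.4, 25.7, 947, 912 and 250.1 CPM at day 2 and 741, 889, 959, 732 and 907 CPM at day 5. Of the Abcb10-null day 2 libraries, replicate 2 was below WT day 0 and the other 4 were above every WT day 0 and day 2 library. The rise from day 0 to day 2 in Abcb10-null was 3.83 ± 0.67 (SE) on the log2 scale (adjusted p = 0.00053), and the dip contrast was negative (-1.63 ± 0.43 (SE), adjusted p = 0.013), a call lost without Abcb10-null day 2 replicate 3 (adjusted p = 0.056). The RefSeq window of *Trib3* holds a TGATGNAA match, the composite C/EBP-ATF form, read here on its opposite strand. It is printed with the match in capitals, at 14 to 21 after the RefSeq start, which lies upstream of the start of the gene span given above.
Trib3, chr2:152344014-152344071, minus strand: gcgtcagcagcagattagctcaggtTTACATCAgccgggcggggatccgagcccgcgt

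*Plekha1*, *Acot2*, *Cyb5r1*, *Angptl6* and *Ier2* shared this form. In WT day 5 replicate 5 they were at 38.7, 120.4, 139, 122 and 21.1 CPM, more than 2-fold above the highest of the other 4 libraries in each, and without that library none of the 6 genes, *Trib3* included, was lower at day 2 than at day 5. *Angptl6*, a secreted angiopoietin-like protein, was at 6.84, 7.68, 10.6, 8.704 and 122 CPM in WT at day 5 and 159, 220.0, 215, 158 and 194 CPM in Abcb10-null. In Abcb10-null the means of all 6 were ordered day 0, day 2, day 5 from low to high, and day 2 replicate 2 was the lowest day 2 library in each of the 6. *Cyb5r1*, a cytochrome b5 reductase family member, rose there from day 0 to day 2 by 2.04 ± 0.42 (SE) on the log2 scale (adjusted p = 0.0017), and *Acot2*, a mitochondrial acyl-CoA thioesterase, by 1.61 ± 0.43 (adjusted p = 0.009). *Cebpg*, a leucine zipper partner of ATF4, had WT means of 88.4, 74.3 and 116 CPM, with 198 CPM in replicate 5 of day 5 and 88.1 to 102 in the others, and it rose by day 2 in Abcb10-null (102, 235 and 356 CPM, 1.22 ± 0.26, adjusted p = 0.002). On the ATF4 target list that holds *Trib3* and *Cebpg*, 18 of 32 genes rose from day 0 to day 2 in Abcb10-null and none fell. Leaving WT day 5 replicate 5 out of the ranking kept 81 of the 100 genes, and of those 81, 31 were positive for the dip contrast in Abcb10-null, 40 fell by day 2 and 20 rose by day 5.

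**Figure D5:**
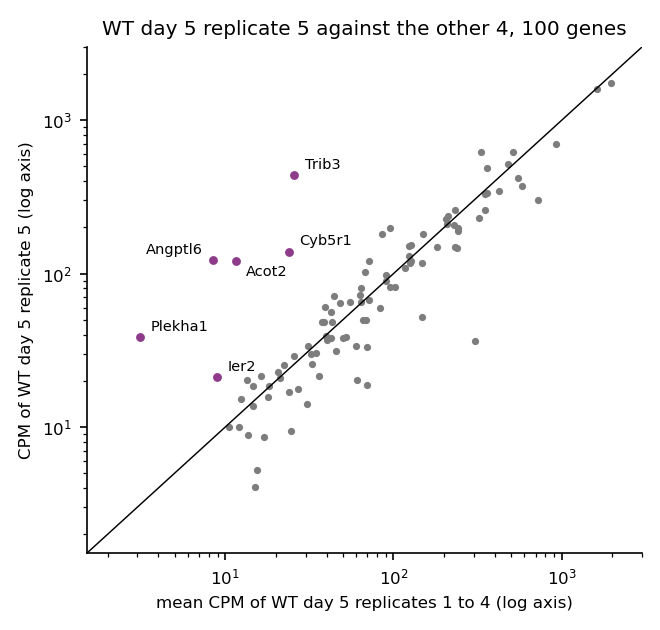
CPM of each of the 100 genes in WT day 5 replicate 5 (vertical log axis) against the mean of WT day 5 replicates 1 to 4 (horizontal log axis), with the line of equal values. The 6 labelled purple points are over 2-fold above the highest of the other 4 libraries, from *Ier2* at 21.1 CPM to *Trib3* at 439 CPM.

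Regulators of transcription and RNA were 14 of the 100. In Abcb10-null 10 of these were lower at day 5 than at day 0, 6 fell by day 2, and 2, *Tbl1xr1* and *Ptbp3*, were positive for the dip contrast. *Tbl1xr1*, a subunit of the NCoR corepressor, had means of 143 ± 17.98, 115 ± 8.24 and 155 ± 20.5 CPM in WT and 174 ± 14.6, 149.7 ± 14.3 and 243 ± 12.7 CPM in Abcb10-null, with a dip contrast of 0.47 ± 0.09 (SE), adjusted p = 0.0017. *Ptbp3*, an RNA-binding splicing regulator of blood cells, had means of 440.1, 357 and 541 CPM in WT and 839, 504 and 606 CPM in Abcb10-null, with 0.52 ± 0.09 (SE), adjusted p = 0.0006. *Cmss1*, a protein linked to the small ribosomal subunit, had the deepest WT dip of this group, 48.6, 51.6, 52.4, 47.97 and 47.5 CPM at day 0, 26.6, 27.9, 33.4, 31.3 and 32.6 at day 2 and 48.9, 60.6, 46.5, 52.4 and 38.5 at day 5. In Abcb10-null its means were 34.7 ± 2.04, 30.9 ± 3.71 and 25.7 ± 4.45 CPM, and the dip contrast of -0.03 did not pass (adjusted p = 0.86). *Smarca5*, the ISWI chromatin remodeler ATPase, was at 595, 444 and 526 CPM in WT and 623, 527 and 471 CPM in Abcb10-null. *Mycbp* and *Zfp882* fell at both steps past the test in Abcb10-null, to day 5 means of 19.4 and 20.9 CPM, beside 42.7 and 62.2 CPM in WT.

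Kinases, phosphatases and other signalling proteins were 7 of the 100. *Sphk1*, which makes sphingosine 1-phosphate, the lipid that red cells store, was at 20.6, 16.3 and 26.4 CPM in WT, with the day 2 libraries below all others. In Abcb10-null its means were 58.5, 15.9 and 12.5 CPM, with a step of -1.90 ± 0.13 (SE) on the log2 scale to day 2 (adjusted p = 3.7e-07) and of -0.28 to day 5 that did not pass (adjusted p = 0.26 in edgeR). *Dusp3*, a MAP kinase phosphatase, had WT means of 46.6, 38.8 and 49.7 CPM and rose from day 2 to day 5 in Abcb10-null (36.5, 43.8 and 87.2 CPM, 1.05 ± 0.11 (SE), adjusted p = 4.6e-05). *Frat1*, an inhibitor of glycogen synthase kinase 3, was at 62.7, 38.4 and 51.4 CPM in WT and 102, 49.9 and 45.9 CPM in Abcb10-null. Its dip contrast was 0.47 ± 0.12 (SE), adjusted p = 0.013, but the step from day 2 to day 5 did not pass (-0.07 on the log2 scale, adjusted p = 0.78 in edgeR). *Zdhhc20*, a protein palmitoyltransferase outside these groups, was highest at day 2 in Abcb10-null (28.9, 46.3 and 37.6 CPM), rising by 0.66 ± 0.17 from day 0 (adjusted p = 0.0066 in edgeR), with a negative dip contrast of -0.46 ± 0.13 (SE), adjusted p = 0.016, lost in the fit of all 30 libraries (adjusted p = 0.099), and WT means of 42.6, 34.1 and 52.5 CPM.

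Genes of mitochondria and metabolism were 7 of the 100, and 3 of them, *Acot2*, *Cyb5r1* and *Coa4*, rose by day 2 in Abcb10-null. *Coa4* and *Surf1*, assembly factors of cytochrome c oxidase, had WT means of 10.2, 8.51 and 11.6 CPM and 48.5, 37.5 and 45.4 CPM. In Abcb10-null they were 9.33, 14.4 and 11.5 CPM and 50.8, 46.5 and 43.9 CPM. The rise of *Coa4* was lost without 1 of 4 libraries (Abcb10-null day 0 replicates 3 and 5 and day 2 replicates 1 and 5, adjusted p = 0.058 to 0.076). *Rfk*, riboflavin kinase, the first step from riboflavin to flavin cofactors, was at 98.6, 82.4 and 115 CPM in WT and 81.2, 71.3 and 95.02 CPM in Abcb10-null. *Mettl7a1*, a methyltransferase-like protein of lipid droplets, was at 34.00, 28.6 and 40.6 CPM and 40.1, 24.4 and 32.6 CPM, with a dip contrast of 0.60 ± 0.14 (SE), adjusted p = 0.0051.

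Non-coding RNAs were 8 of the 100, and 6 of them rose from day 0 to day 2 in Abcb10-null, where 23.1% of all genes tested did, and 3 of these calls were lost when 1 library was left out. These were *Gm22422*, *Snora23* and *Gm24119* (small nucleolar RNAs), *Gm24265* (a small nuclear RNA), and *Bc1* and *Gm26654* (annotated as long intergenic RNAs). snoRNA and snRNA genes were 4 of the 100 and 16 of the 7646. *Bc1*, a short RNA polymerase III transcript known from neurons, differed widely between libraries. In WT, *Bc1* was at 199, 278, 281, 250.2 and 168 CPM at day 0, 39.02, 42.8, 361, 189.9 and 236 CPM at day 2 and 353, 236, 317, 307 and 36.2 CPM at day 5. In Abcb10-null, *Bc1* was at 26.4, 9.77, 12.4, 11.5 and 16.1 CPM at day 0, 65.6, 308, 51.9, 38.9 and 394 CPM at day 2 and 44.1, 42.1, 50.8, 413 and 362 CPM at day 5. WT day 2 replicates 1 and 2 and day 5 replicate 5 were at 36.2 to 42.8 CPM and the other WT libraries at 168 CPM or more. In Abcb10-null no day 0 library was above 26.4 CPM, and 2 libraries of day 2 and 2 of day 5 were at 308 CPM or more. The step from day 0 to day 2 was 3.43 ± 0.60 (SE) on the log2 scale (adjusted p = 0.00055). *Gm24265* had means of 218 ± 75.5, 156 ± 97.5 and 215 ± 78.9 CPM in WT and 32.2 ± 13.4, 128 ± 159 and 202 ± 160.3 CPM in Abcb10-null, and *Snora23* had 47.2 ± 26.3, 35.5 ± 12.3 and 47.7 ± 18.6 CPM and 11.04 ± 2.56, 34.2 ± 34.4 and 35.6 ± 14.98 CPM. Their rises were lost without Abcb10-null day 2 replicate 5 (adjusted p = 0.10 and 0.070) and without day 0 replicate 2 (0.054 and 0.050), and that of *Gm24265* also without day 0 replicate 5 (0.056). The rise of *Gm22422* was lost without day 2 replicate 5 as well (adjusted p = 0.10 in edgeR). *Gm22422* had means of 0.943 ± 0.203, 9.25 ± 14.8 and 3.43 ± 2.55 CPM in Abcb10-null, and its dip contrast of -2.29 ± 0.68 (SE), adjusted p = 0.025 was lost without the same day 2 library (adjusted p = 0.56).

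*Gm24265* and its neighbor *Gm24407* are copies of the spliceosomal U4 RNA, 98.6% identical over 141 bases, and are shown because reads from one can be assigned to the other. The differing bases are in capitals. Counted from 1 at the 5′ end of *Gm24265*, the changes to *Gm24407* are G88A and C99A.
Gm24265, chr5:115489459-115489599, plus strand: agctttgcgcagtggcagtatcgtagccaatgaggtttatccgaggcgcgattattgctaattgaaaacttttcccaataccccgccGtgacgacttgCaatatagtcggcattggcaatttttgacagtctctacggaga
Gm24407, chr5:115490254-115490394, plus strand: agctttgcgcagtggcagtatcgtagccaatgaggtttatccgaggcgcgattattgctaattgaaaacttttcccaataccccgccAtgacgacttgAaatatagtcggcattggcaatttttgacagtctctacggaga
*Gm24407* was at 0.821 to 3.88 CPM in the group means, so nearly all reads of the pair were counted on *Gm24265*. *Snora23* (chr7:110046364-110046547, plus strand) lies within *Ipo7* on the same strand, *Gm22422* within *Trmt10c* and *Gm24119* within *Slc25a3*, so unspliced host RNA can add to their counts. The annotated sequence of *Snora23*, an H/ACA box RNA, is shown as an example of these.
Snora23: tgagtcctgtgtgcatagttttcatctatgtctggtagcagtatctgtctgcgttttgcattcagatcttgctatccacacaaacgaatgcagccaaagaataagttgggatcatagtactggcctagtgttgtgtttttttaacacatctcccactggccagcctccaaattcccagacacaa
A list of small non-coding RNA genes was made by name pattern, so it can hold other genes with such names. It holds 5 of these 8, the long intergenic *Gm26654* among them. Of its 227 genes tested, 47 rose from day 0 to day 2 in Abcb10-null and 15 fell. The share that rose was below the 23.1% of all genes.

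The remaining non-coding genes followed the main pattern in part. *1700016F12Rik*, an intergenic RNA of unknown role, had means of 47.4 ± 4.99, 15.4 ± 7.45 and 21.5 ± 8.96 CPM in WT and 81.6 ± 7.38, 25.2 ± 9.17 and 27.4 ± 6.53 CPM in Abcb10-null. Its dip contrast was 0.93 ± 0.21 (SE), adjusted p = 0.0044, but the step from day 2 to day 5 did not pass (0.18 on the log2 scale, adjusted p = 0.65 in edgeR). *Gm47015* fell at both steps in Abcb10-null (103, 28.2 and 11.4 CPM), beside 40.5, 33.6 and 41.8 CPM in WT. *Gm26654* had means of 2.19 ± 0.781, 8.43 ± 2.704 and 5.89 ± 2.38 CPM in Abcb10-null and a negative dip contrast of -1.19 ± 0.24 (SE), adjusted p = 0.0025.

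Predicted genes and pseudogenes were 6 of the 100. *Gm8995* (chr7:106504239-106511671, minus strand), a transcribed pseudogene, was low in WT at first. In WT, *Gm8995* was at 9.17, 10.5, 9.61, 11 and 9.93 CPM at day 0, 3.82, 6.87, 5.21, 3.19 and 4.77 CPM at day 2 and 31.95, 63.8, 22.1, 40.3 and 39.2 CPM at day 5. In Abcb10-null, *Gm8995* was at 121, 130.5, 101, 125 and 129.8 CPM at day 0, 37.9, 18.2, 34.8, 45.3 and 30.4 CPM at day 2 and 43.4, 46.4, 46.2, 40.6 and 23.8 CPM at day 5. Abcb10-null began 3.47 above WT at day 0 on the log2(CPM + 1) scale and fell by day 2 (-1.86 ± 0.21 (SE), adjusted p = 1.9e-05), with a dip contrast of 1.06 ± 0.19 (SE), adjusted p = 0.00087. The step of *Gm8995* from day 2 to day 5 did not pass there (0.30 on the log2 scale, adjusted p = 0.37 in edgeR). *Gm10800*, *Gm10801* and *Gm21738* differed widely between libraries of 1 group. In WT, *Gm10800* was at 389.9, 109, 119.9, 7.31 and 10.8 CPM at day 0, 6.91, 4.36, 291, 69.2 and 41.7 CPM at day 2 and 289.9, 675, 1607, 314 and 303 CPM at day 5. In Abcb10-null, *Gm10800* was at 23.6, 0.149, 0.163, 7.23 and 125 CPM at day 0, 122, 137, 32.00, 0.231 and 145 CPM at day 2 and 46.9, 0.538, 1.2, 7014 and 812 CPM at day 5. Libraries of 1 group spanned a wide range, from 0.538 to 7014 CPM in Abcb10-null at day 5. The dip contrasts of *Gm10800*, *Gm10801* and *Gm21738* in Abcb10-null were 1.37 ± 1.47, 1.59 ± 1.27 and 1.37 ± 1.27 (SE, log2 scale), none past the test (adjusted p = 0.56, 0.41 and 0.49). Without WT day 0 replicate 1 the ranking no longer picked any of these 3. *Gm10800* and *Gm10801*, on chromosome 2, share a run that is nearly identical, printed below from each transcript (bases 557 to 658 and 1 to 102), and it matches, on the complementary strand, the unit of the mouse major satellite repeat of centromeric heterochromatin.
Gm10800, within chr2:98666547-98667301, minus strand: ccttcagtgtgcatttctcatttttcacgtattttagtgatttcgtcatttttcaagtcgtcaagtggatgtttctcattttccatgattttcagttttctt
Gm10801, within chr2:98662237-98664083, plus strand: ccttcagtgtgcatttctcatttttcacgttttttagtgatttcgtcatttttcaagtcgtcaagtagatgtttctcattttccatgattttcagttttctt
Reads from the many genomic copies of this repeat cannot be told apart, so the counts of *Gm10800* and *Gm10801* may hold reads from other copies.

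Copies elsewhere in the transcriptome touched other members. A stretch of at least 100 bases with at least 95% identity to a transcript of another gene was found for 28 of the 100 genes, and in 8 it covered over 50% of the transcript. *Gm8822* is 98.8% identical to *Actr3* and *Gm4149* is 99.6% identical to *Rpl37a* over the aligned stretch. *Gm8822* went 18.1, 14.2 and 18.2 CPM in WT and *Actr3* 251, 178 and 201 CPM, and *Gm4149* went 15.2, 11.8 and 14.4 CPM and *Rpl37a* 479.8, 379 and 369.9 CPM, so neither pseudogene can be read apart from its parent. *Acot1*, the near copy of *Acot2*, was at 13.95, 7.04 and 5.72 CPM in Abcb10-null while *Acot2* was at 14.98, 44.8 and 113 CPM. Of the 100 genes, 89 were protein coding (97.4% of the 7646), they lay on 20 chromosomes with at most 10 on 1, and their median exon length was 3000.5 bases beside 4659 for the 7646.

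Set against WT on the same day, Abcb10-null means were above WT in 67 of the 100 genes at day 0, 77 at day 2 and 52 at day 5, beside 56.4%, 49.9% and 47.0% of the 7646. All 5 Abcb10-null libraries lay above all 5 WT libraries in 31, 17 and 18 genes, beside 18.5%, 7.45% and 13.6% of the 7646, and below them in 13, 1 and 17, beside 8.93%, 7.08% and 15.7%. The median log2 ratio of means was 0.12, 0.28 and 0.07. The choice of genes with a low WT day 2 raises the day 2 ratio by itself, and nothing is read from it.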

How the data were processed

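RNA of MEL cells, in 30 libraries with 5 for each genotype and day, was depleted of ribosomal and globin RNA and sequenced with stranded total RNA libraries. The values used are raw counts per Ensembl gene as deposited by the authors, who aligned trimmed reads to GRCm38 with STAR 2.6.1b and counted them with featureCounts 1.6.3. The strand setting of that counting is not given in the sources used here, so opposite-strand neighbors may share reads. Total counts ran from 9906783 to 20157768. IDs outside the annotation used for names (37 of 54532) held 0.0116% of counts. The labels call the libraries of a group biological replicates and number them, without saying what was separate between them. The p-values thus measure the spread between these libraries, which may be partly technical. The smallest chi-square between replicate libraries was 6.23 per degree of freedom, so none was a repeat deposit.

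CPM used column sums. Differences in Abcb10-null were tested with edgeR 4.0.16 in R 4.3.3 (TMM scaling, filterByExpr, quasi-likelihood test, Benjamini-Hochberg adjusted p under 0.05 over all genes tested), with 10 libraries for each pair of days and 15 for the dip. DESeq2 1.42.0, other filters and scalings, a replicate block, a fit of all 30 libraries and leaving out each library were tried. Counts were also simulated for each gene on its own, with changes only in genes of at least 10 CPM. On these the dip test recovered 51 of 100 genes changed by 0.5 and 99 of 100 changed by 1 on the log2 scale, with 5 false calls among 13046 genes. Such counts lack deviations that a library shares across genes, so these rates need not hold in the real data. Promoter windows came from RefSeq (GRCm38.p6), transcripts from GENCODE, and copies were searched with blastn 2.17.0. The members and gene lists were chosen with earlier results of these data known, and the groups of related function were drawn up after the values were seen. The rule for named genes gave full values to the 12 largest ranking values, to the 6 largest and 6 smallest called dip contrasts, to up to 4 members per list and to the 3 genes on each side of the boundary, and allowed any of the 100 to be named. Other genes described in full were chosen after their values were seen. Among the cell type markers, 2 genes are not reported here, and marker sums leave them out.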

Additional observations from a re-analysis of the deposited data

Results flagged for a closer look

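Within each group of 5 libraries, the highest and the lowest library were compared with the next one, for each of 35 named genes and for the mean over the 100 genes. Of 216 such comparisons, 27 exceeded the 95% limit of Dixon's test. Each of the 27 stands as a library far from the other 4 of its group, and no cause was tested. The comparisons include WT libraries, which chose the genes, and a high WT day 5 library can raise the ranking value. The number of flags is therefore not set against a chance rate, and the limit serves only to list libraries.

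*Plekha1* was at 38.75 CPM in WT day 5 replicate 5 (highest of its group, the others 2.048 to 4.096). *Gm8995* was at 23.78 CPM in Abcb10-null day 5 replicate 5 (lowest of its group, the others 40.58 to 46.39). *Cd24a* was at 619.1 CPM in Abcb10-null day 2 replicate 2 (highest of its group, the others 458.4 to 496.8). *Gm10800* was at 125.1 CPM in Abcb10-null day 0 replicate 5 (highest of its group, the others 0.1488 to 23.63), 291 CPM in WT day 2 replicate 3 (highest of its group, the others 4.361 to 69.2) and 7014 CPM in Abcb10-null day 5 replicate 4 (highest of its group, the others 0.5381 to 811.7). *Gm10801* was at 56.83 CPM in WT day 2 replicate 3 (highest of its group, the others 1.073 to 10.29) and 1939 CPM in Abcb10-null day 5 replicate 4 (highest of its group, the others 0.5381 to 174.6). *Gm21738* was at 33.25 CPM in WT day 0 replicate 1 (highest of its group, the others 0.4845 to 9.353), 8.218 CPM in Abcb10-null day 0 replicate 5 (highest of its group, the others 0.1084 to 1.402), 23.43 CPM in WT day 2 replicate 3 (highest of its group, the others 0.4022 to 4.41) and 640.1 CPM in Abcb10-null day 5 replicate 4 (highest of its group, the others 0.1104 to 74.99). *Mvp* was at 72.45 CPM in Abcb10-null day 0 replicate 1 (lowest of its group, the others 83.56 to 86.97). *Sla* was at 158 CPM in WT day 0 replicate 3 (highest of its group, the others 144.4 to 148.2). *Gm22422* was at 35.32 CPM in Abcb10-null day 2 replicate 5 (highest of its group, the others 0.0578 to 7.244). *Trib3* was at 67.91 CPM in WT day 0 replicate 1 (highest of its group, the others 55.98 to 58.62) and 439 CPM in WT day 5 replicate 5 (highest of its group, the others 18.4 to 31.82). *Gm26654* was at 10.03 CPM in Abcb10-null day 5 replicate 5 (highest of its group, the others 4.065 to 5.653). *S100a4* was at 6.369 CPM in WT day 2 replicate 1 (lowest of its group, the others 9.43 to 10.34). *Ier2* was at 21.12 CPM in WT day 5 replicate 5 (highest of its group, the others 7.297 to 9.728). *Cebpg* was at 197.6 CPM in WT day 5 replicate 5 (highest of its group, the others 88.06 to 102.3). *Gm24265* was at 403.3 CPM in Abcb10-null day 2 replicate 5 (highest of its group, the others 28.96 to 128.5) and 74.91 CPM in WT day 5 replicate 2 (lowest of its group, the others 238.8 to 255.9). *Snora23* was at 94.04 CPM in WT day 0 replicate 3 (highest of its group, the others 31.56 to 38.52). *Cat* was at 101.6 CPM in Abcb10-null day 0 replicate 3 (lowest of its group, the others 130.6 to 138.4). *Serp1* was at 430.7 CPM in Abcb10-null day 0 replicate 1 (highest of its group, the others 407.1 to 412.6) and 375.6 CPM in WT day 2 replicate 3 (highest of its group, the others 272.5 to 290.2).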

How the results depend on the processing

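Among the 100 genes the number with a positive dip contrast in Abcb10-null was 35, and 29 to 36 when 1 library was left out. It was 23 with all genes of at least 1 count in the fit. Negative calls went from 5 to 13 with all genes of at least 1 count, to 3 with at least 10 counts in every library and to 3 under a block for replicate number, and ran from 5 to 13 when 1 library was left out, with 13 without Abcb10-null day 2 replicate 2. From day 2 to day 5, 24 genes rose and 15 to 25 did with 1 library left out, with 15 without Abcb10-null day 5 replicate 5. In that step 5 fell, 8 with all genes of at least 1 count, 3 with the block and 4 to 7 with 1 library left out. From day 0 to day 2 the range with 1 library left out was 39 to 44 for genes that fell and 13 to 19 for those that rose, and 77 to 82 differed between day 0 and day 5. The ranking kept 79 to 95 of the 100 genes without 1 WT library and 67 with TMM-scaled CPM. Of alternatives chosen after seeing the data, 31 of the 82 genes still picked without WT day 5 replicate 2 and 27 of the 67 picked with TMM-scaled CPM were positive. The causes of these changes were not tested.

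Same-numbered libraries of different days did not deviate together (15 pairs, correlation -0.32 to 0.21, 3 over 0.1), so they share only a number. The block gave 30 positive and 3 negative dip calls, 40 genes that fell and 10 that rose by day 2, and 18 that rose by day 5. Among the calls lost with it were the dips of *Trib3* (adjusted p = 0.089), *Gm22422* (0.16) and *Cd24a* (0.088), the day 2 rises of *Gm22422* (0.090), *Gm24265* (0.14), *Snora23* (0.061) and *Gm24119* (0.081), the day 5 rise of *Cat* (0.062) and the day 5 fall of *Zfp882* (0.054). Directions that turned all belong to values that did not pass the test in the dip contrast, *Gm10801* from day 2 to day 5 (-0.27 with the block) aside. The dip contrast of *Plekha1* became 0.10 with the block, 0.21 without Abcb10-null day 2 replicate 1 and 0.12 without replicate 4. With the block *Gm10800*, *Gm10801* and *Gm21738* turned to -2.85, -1.23 and -1.44, and without Abcb10-null day 5 replicate 4 *Gm10800* and *Gm21738* turned to -0.023 and -0.033. Without Abcb10-null day 2 replicate 2 *Dapp1* turned to -0.056 and *Ier2* to -0.089, without replicate 1 *Cmss1* turned to 0.072, and without replicate 5 *Ier2* turned to -0.0043, *Gm24265* to 0.51 and *Snora23* to 0.051. With any 1 library removed, the dip contrast ran from -0.50 to 0.21 for *Plekha1*, -0.056 to 0.37 for *Dapp1*, -0.083 to 0.072 for *Cmss1*, -0.023 to 1.63 for *Gm10800*, -0.033 to 1.86 for *Gm21738*, -0.089 to 0.37 for *Ier2*, -0.84 to 0.51 for *Gm24265* and -0.93 to 0.051 for *Snora23*. In the self-test of the step from day 0 to day 2, 26 of 100 genes changed by 0.5 on the log2 scale were recovered, so steps of that size can be missed.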
